A study of Mus musculus with 36 samples.

Results

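The genes described here are 8 genes that make, store, take up or specify the catecholamines dopamine, noradrenaline and adrenaline: Th, Ddc, Dbh, Gch1, Slc18a2, Slc6a2, Slc6a3 and Phox2a. Every probe set annotated to 1 of these genes and to no other was taken, which gave 15 of the 45037 probe sets on the array that are not controls, for 8 of the 18194 genes named by a probe set with a single symbol. Ddc and Gch1 had 2 probe sets each, Dbh had 3, Slc6a2 had 4, and Th, Slc18a2, Slc6a3 and Phox2a had 1 each. Total RNA from the cerebellum and the forebrain of mice was measured on 36 arrays in 12 groups of 3. The groups were stg-/- and stg+/+, tg-/- and tg+/+, and lh-/- and lh+/+, each in both tissues. Age, sex and strain background were not stated in the labels, which also give no treatment. Most forebrain labels read as the forebrain of a mutant mouse, in the singular and with the word mutant also in the +/+ groups. No label gives a count of animals. The reference annotation lists stg, tg and lh as synonyms of Cacng2, Cacna1a and Cacnb4, which code for an AMPA receptor auxiliary protein, the pore of a voltage-gated calcium channel and a calcium channel beta subunit. The question was whether Th rises in the mutant cerebellum by itself or together with the rest of the catecholamine machinery.

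Tyrosine hydroxylase, the product of Th, makes L-DOPA from tyrosine and is the rate-limiting enzyme of catecholamine synthesis. Its cofactor tetrahydrobiopterin is made by a pathway that starts with Gch1, and Ddc turns L-DOPA into dopamine. Slc18a2 loads dopamine into vesicles, where Dbh turns it into noradrenaline, while Slc6a3 and Slc6a2 take dopamine and noradrenaline back up from the outside of the cell. Phox2a is a transcription factor of noradrenergic neurons. The cerebellum receives noradrenergic fibres whose cell bodies lie in the brainstem, and Th has also been described in some Purkinje cells, which are not known as catecholamine neurons.

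The mutated genes were read as a check of the labels. The Cacng2 probe set with the highest mean ran from 3.21 to 41.7 in stg-/- cerebellum and from 470 to 487 in stg+/+ cerebellum. The Cacnb4 probe set ran from 591 to 656 in lh-/- forebrain and from 1216 to 1456 in lh+/+ forebrain. In cerebellum it ran from 1300 to 1508 in lh-/- and from 1821 to 2596 in lh+/+, but it was also lower without overlap in stg-/- (1474 to 1776) than in stg+/+ (1809 to 2472), so its cerebellar level does not single out lh. The Cacna1a probe set overlapped between tg-/- (284 to 430) and tg+/+ cerebellum (247 to 485), so the level does not check the tg label. The labelled tissues matched the granule cell marker Gabra6, which was at 5222 or above on every cerebellum array and at 178 or below on every forebrain array. The Gapdh and Actb 3' to 5' differences, a sign of RNA quality, overlapped between -/- and +/+ in all 3 lines in cerebellum. In forebrain those of Gapdh overlapped in all 3 lines, but those of Actb did so only in tg. Actb ran from 0.685 to 0.792 in stg-/- forebrain, against 0.836 to 1.14 in stg+/+. In lh forebrain it ran from 0.835 to 0.875 in lh-/-, against 0.882 to 0.911 in lh+/+. The part of this in the forebrain results was not tested.

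Th rose strongly in the cerebellum of tg-/- and lh-/- mice. Th lies on chromosome 7 (chr7:142892779-142899995, GRCm38.p6), and its only probe set (1420546_at) gave signals of 551, 606 and 617 in tg-/- cerebellum, against 31.3, 30.5 and 29.9 in tg+/+ cerebellum. In lh-/- cerebellum the signals were 562, 568 and 475, against 49.1, 57.2 and 37.2 in lh+/+ cerebellum. The groups did not overlap in either line, and the 6 mutant arrays stood far above everything else in the tissue: the lowest of them was 8.07 times the highest of the other 12 cerebellum arrays. The arrays measure RNA of the whole tissue, so more cells with the transcript and more transcript per cell cannot be told apart.

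**Figure D1:**
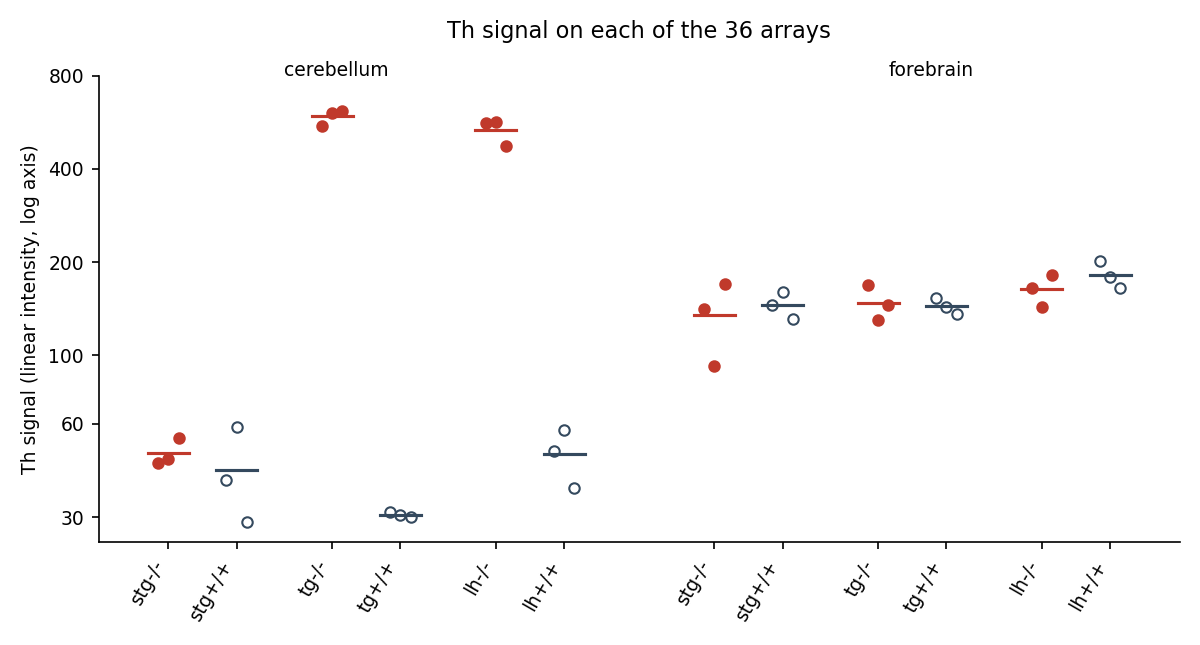
Signal of the Th probe set (linear intensity, log axis) on each of the 36 arrays, by line, genotype and tissue; filled red points are -/- arrays, open points +/+ arrays, and horizontal lines are group means of 3 arrays. The 6 arrays of tg-/- and lh-/- cerebellum lie between 475 and 617, above the other 12 cerebellum arrays (29.0 to 58.9) and the 18 forebrain arrays (92.6 to 201).

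In the fit over the 18 cerebellum arrays, log2 of the signal plus a constant of 2.98 was 4.15 higher in tg-/- than in tg+/+ (SE 0.20, 95% interval 3.73 to 4.56, limma adjusted p = 6.96e-10). The group means were 591 ± 35.6 in tg-/- and 30.6 ± 0.671 in tg+/+ (SD, n = 3 each), a ratio of 19.3. In lh the difference was 3.42 (SE 0.20, 95% interval 3.0 to 3.84, limma adjusted p = 2.10e-08), with means of 535 ± 52.1 in lh-/- and 47.8 ± 10.1 in lh+/+ (SD, n = 3 each) and a ratio of 11.2. Th had the smallest p of all 27022 probe sets tested in both comparisons. By size it was the 4th of 93 probe sets called higher in tg-/- cerebellum and the 1st of 15 in lh-/- cerebellum.

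In stg the Th signals overlapped. They were 44.9, 46.4 and 54.2 in stg-/- cerebellum, against 39.6, 58.9 and 29.0 in stg+/+ cerebellum. The difference of 0.23 (SE 0.20, 95% interval -0.19 to 0.65) did not pass (limma adjusted p = 0.764), and the interval stops far short of the changes in tg and lh. The difference between lines was tested directly. The change in tg exceeded that in stg by 3.92 (SE 0.28, limma adjusted p = 3.97e-07), and the change in lh exceeded that in stg by 3.19 (SE 0.28, limma adjusted p = 1.22e-05). Between tg and lh the changes differed by 0.73 (SE 0.28, 95% interval 0.14 to 1.32), which did not pass over all probe sets (limma adjusted p = 0.896).

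Forebrain Th did not follow. The forebrain signals were 168, 130 and 145 in tg-/-, against 153, 143 and 136 in tg+/+. They were 165, 143 and 182 in lh-/-, against 201, 179 and 164 in lh+/+. In stg-/- they were 92.6, 142 and 170, against 146, 160 and 131 in stg+/+. The genotypes overlapped in every line. The changes of 0.03 in tg, -0.15 in lh and -0.15 in stg did not pass (limma adjusted p of 0.995 or more), with 95% intervals that together ran from -0.53 to 0.41. The change in cerebellum minus that in forebrain was 4.11 in tg (SE 0.27, limma adjusted p = 2.04e-11) and 3.57 in lh (SE 0.27, limma adjusted p = 8.91e-10). In stg it was 0.37 (SE 0.27, limma adjusted p = 0.948).

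Ordered by mean signal, tg-/- cerebellum (591) and lh-/- cerebellum (535) came first, and their arrays overlapped. The 6 forebrain groups followed, with means from 182 in lh+/+ down to 135 in stg-/- and overlapping neighbours. The other 4 cerebellum groups came last, from 48.5 in stg-/- to 30.6 in tg+/+. The lowest array of tg-/- and lh-/- cerebellum was 2.36 times the highest forebrain array. Among the +/+ groups of the 3 lines, cerebellar Th differed at an unadjusted p of 0.0276 and did not pass (moderated F test in limma, adjusted p = 0.405), and in forebrain the adjusted p was 0.811. None of the measured probe sets of the 8 genes passed this test in either tissue, where 0.881% of all probe sets tested did in cerebellum and 0.414% in forebrain.

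The promoter of Th is shown because Th is the gene that moved, next to those of Slc18a2, which holds the same cyclic AMP response element, and Dbh, which holds no match to it or to AP-1. The sequences are from RefSeq (GRCm38.p6). They end at the transcription start, except that of Slc18a2, which goes 4 bases past it. Capitals mark the cyclic AMP response element TGACGTCA and, in Th, the AP-1 motif TGATTCA.

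Th promoter, minus strand of chr7:142899996-142900245: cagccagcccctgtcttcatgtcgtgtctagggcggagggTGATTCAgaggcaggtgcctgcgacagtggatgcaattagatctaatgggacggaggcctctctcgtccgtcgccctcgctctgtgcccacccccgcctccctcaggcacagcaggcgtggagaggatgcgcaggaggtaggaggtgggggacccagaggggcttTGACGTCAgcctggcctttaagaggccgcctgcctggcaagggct
Slc18a2 promoter, plus strand of chr19:59260628-59260881: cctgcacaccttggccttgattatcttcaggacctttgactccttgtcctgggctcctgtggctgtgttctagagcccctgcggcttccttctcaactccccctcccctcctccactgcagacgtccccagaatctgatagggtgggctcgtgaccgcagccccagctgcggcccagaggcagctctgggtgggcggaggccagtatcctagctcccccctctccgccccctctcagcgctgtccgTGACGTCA
Dbh promoter, plus strand of chr2:27165257-27165506: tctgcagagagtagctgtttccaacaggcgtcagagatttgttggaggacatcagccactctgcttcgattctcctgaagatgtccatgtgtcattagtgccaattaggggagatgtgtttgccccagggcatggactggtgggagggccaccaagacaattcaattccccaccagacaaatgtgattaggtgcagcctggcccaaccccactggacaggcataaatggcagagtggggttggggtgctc

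Windows of 300 bases, 250 before and 50 after the start, were searched on both strands for TGACGTCA, for AP-1 (TGANTCA), for the NR4A site AAAGGTCA and for the GC box GGGCGG. RefSeq gave 8 such promoters for 7 of the 8 genes. In Th the cyclic AMP response element lay at positions -45 to -38 and the AP-1 motif at -210 to -204, counted from the start. In Slc18a2 the cyclic AMP response element lay across the start, at -4 to 4. The Ddc promoter at chr11:11898145-11898394 held TGAATCA, an AP-1 match, at -129 to -123 and an NR4A match on the other strand at -73 to -66. The other Ddc promoter, at chr11:11890409-11890658, held neither. GC boxes lay in Th (-220 to -215), Gch1, Slc18a2, Slc6a3 and Phox2a. Of all 32851 promoters of this length, 1.79% held the cyclic AMP response element, 7.81% AP-1, 1.51% the NR4A site and 35.7% the GC box. These are matches of letters and no measure of binding.

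No other member of the catecholamine group was called in any line. In cerebellum 5 of the 15 probe sets passed the filter on low signal, which lay at about 24.0: Th, 1 of Ddc (1426215_at), 2 of Dbh (1450670_at and 1459848_x_at) and 1 of Slc6a2 (1447311_at). The other 10 fell below it. Of the 5 that passed, 1 was called in tg cerebellum and 1 in lh cerebellum, Th in each, and 0 in stg cerebellum. Over all probe sets tested, 0.574% were called in tg cerebellum, 0.155% in lh and 1.30% in stg. With the replicate number as a block, which changed no member's call, 1018 rather than 352 probe sets were called in stg. At an unadjusted p under 0.05 the counts were 1 in tg, 2 in lh and 0 in stg, against 7.28%, 7.62% and 10.7% of all probe sets tested. Without the filter all 15 were tested, and Th was again the only call, with the lowest adjusted p of the other probe sets at 0.759 in tg, 0.390 in lh and 0.610 in stg (limma). For differences of the change between lines, Th was the only call among the 5 in tg minus stg (0.329% of all called) and in lh minus stg (0.118%), and none was called in tg minus lh (0.0407%).

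**Figure D2:**
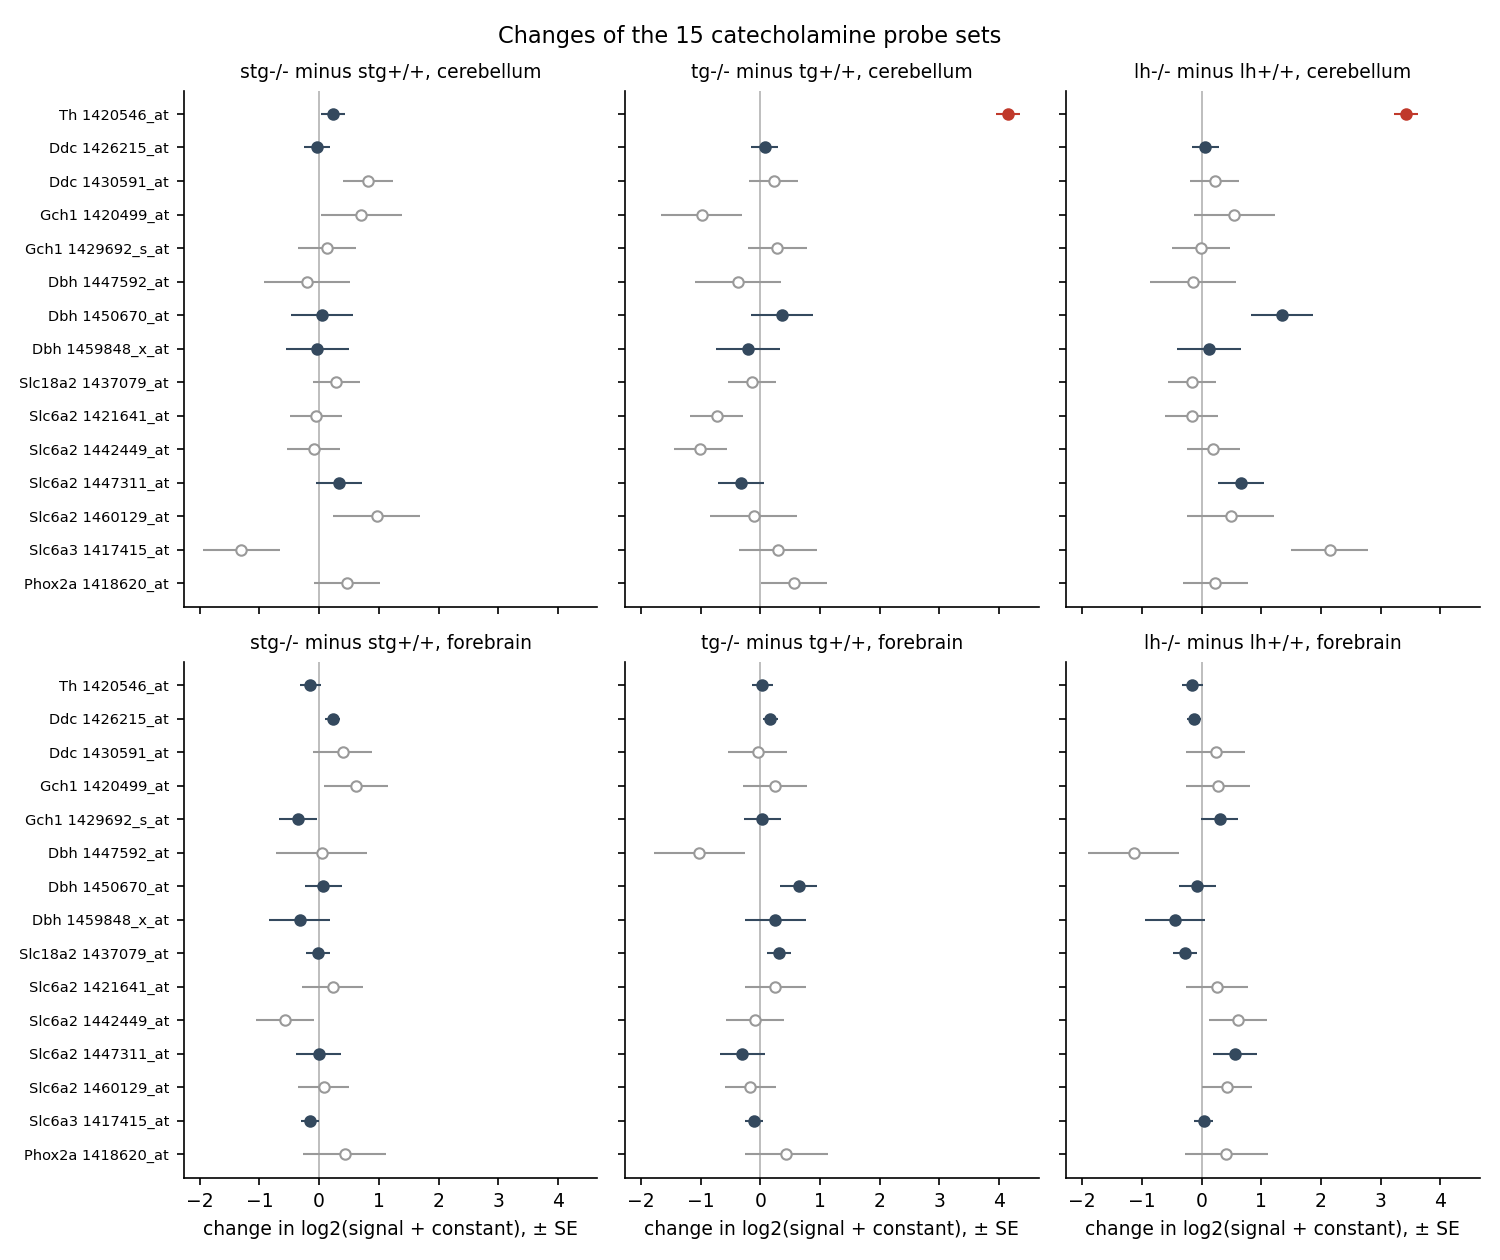
Change of each of the 15 probe sets, -/- minus +/+, in log2(signal + constant) with its SE, for the 3 lines in cerebellum (upper row) and forebrain (lower row); red points passed adjusted p 0.05, dark filled points were tested and did not pass, and open grey points were below the filter and come from a fit without it. Th in tg (4.15) and lh cerebellum (3.42) are the only red points.

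Ddc, the enzyme next after tyrosine hydroxylase, was measurable in cerebellum and did not pass the test in any line. The Ddc probe set 1426215_at read 72.2, 88.5 and 92.9 in tg-/- cerebellum, against 86.3, 70.8 and 82.5 in tg+/+ cerebellum. It read 63.9, 88.1 and 62.9 in lh-/- cerebellum, against 80.0, 66.7 and 58.0 in lh+/+ cerebellum. The genotypes overlapped in both lines. The changes were 0.08 in tg (95% interval -0.39 to 0.55), 0.06 in lh (-0.41 to 0.53) and -0.03 in stg (-0.50 to 0.43), so a change in Ddc of the size seen in Th lies outside all 3 intervals. The other Ddc probe set (1430591_at) had a mean of 5.76 or less in each cerebellum group and gives no usable level. Both Gch1 probe sets had means of 24.0 or less in each cerebellum group, with overlapping genotypes in every line, so a change in Gch1 was not measurable at this signal.

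Dbh gave the largest other change among the tested members, and its probe sets did not move alike. The Dbh probe set 1450670_at read 44.9, 26.0 and 29.8 in lh-/- cerebellum, against 0.924, 27.1 and 20.3 in lh+/+ cerebellum. The groups overlapped, and lh+/+ replicate 1 lay far below the other arrays. The change of 1.35 (SE 0.52, unadjusted p = 0.0174) did not pass (limma adjusted p = 0.490), and without lh+/+ replicate 1 it was 0.43. The Dbh probe set 1459848_x_at changed by 0.12 in lh, -0.20 in tg and -0.03 in stg cerebellum (SE 0.53 each, limma adjusted p from 0.983 to 0.998). The last Dbh probe set (1447592_at) was below the filter in both tissues.

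The vesicle transporter Slc18a2 was below the filter in cerebellum, at 12, 11.2 and 17.5 in tg-/-, against 16.3, 9.74 and 20.9 in tg+/+. In lh-/- it was at 20.7, 9.48 and 18.4, against 14.0, 16.8 and 22.9 in lh+/+. The genotypes overlapped in both lines, and in the fit without the filter the change was -0.15 in tg and -0.15 in lh. The promoters of Th and Slc18a2 both hold the cyclic AMP response element shown above, and its part in the Th change was not tested. The dopamine transporter Slc6a3 read 35.9, 24.9 and 11.6 in lh-/- cerebellum, against 3.67, 3.30 and 1.39 in lh+/+ cerebellum. These arrays did not overlap, but the probe set was below the filter, and in the fit without it the change of 2.14 did not pass (unadjusted p = 0.0037, limma adjusted p = 0.390). In tg cerebellum Slc6a3 read 18, 7.92 and 1.41 in tg-/-, against 16.5, 1.37 and 3.37 in tg+/+, which overlapped.

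**Figure D3:**
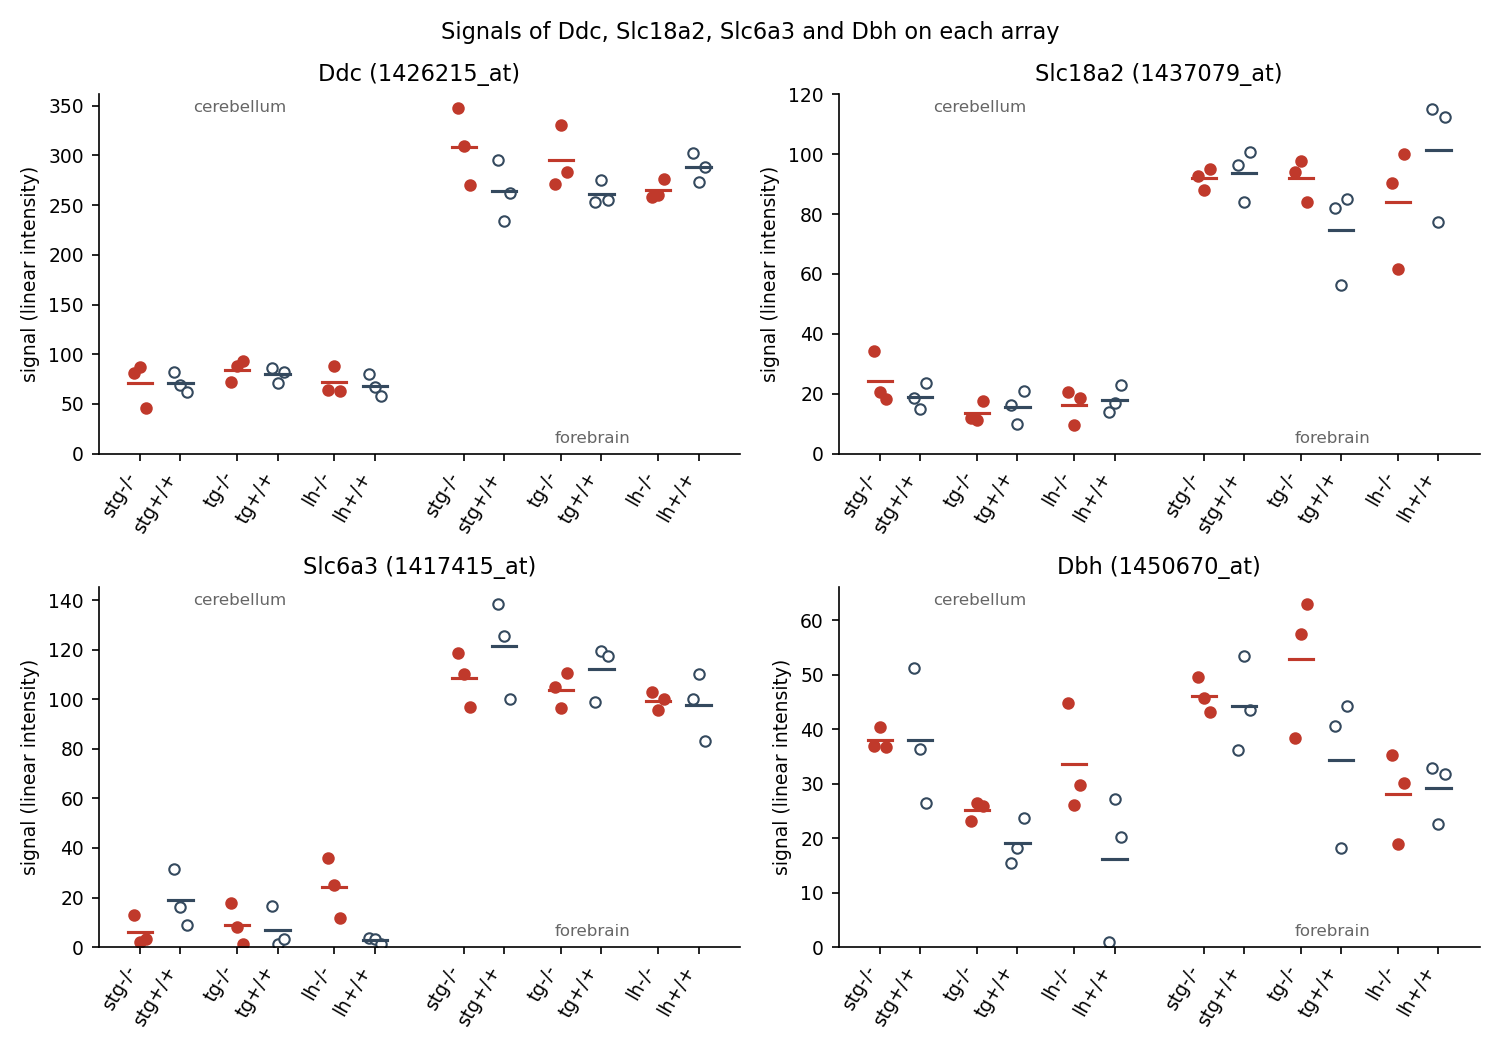
Signals (linear intensity) of Ddc, Slc18a2, Slc6a3 and Dbh on each of the 36 arrays; filled red points are -/- arrays, open points +/+ arrays, and lines are means of 3 arrays. Ddc lies between 46.0 and 92.9 in cerebellum and between 234 and 347 in forebrain, with overlapping genotypes in cerebellum.

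Among the Slc6a2 probe sets, for the noradrenaline transporter, 1447311_at was measurable and changed by -0.32 in tg, 0.66 in lh and 0.34 in stg cerebellum (SE 0.39 each), none passing. In tg cerebellum all 4 Slc6a2 probe sets had changes below 0, from -1.0 to -0.11 in the fit without the filter, and none passed. For 1421641_at the tg arrays did not overlap, with 14.6, 8.24 and 9.51 in tg-/-, against 16.2, 19.9 and 22.7 in tg+/+ (change -0.73, limma adjusted p = 0.939). Slc6a2 lies on chromosome 8 and is 8.32 Mb from Cacna1a. Dbh lies on chromosome 2 and is 25.2 Mb from Cacnb4. Phox2a was at or below 30.1 on every cerebellum array and below the filter. Its change was 0.56 in tg, 0.23 in lh and 0.47 in stg, none passing.

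In forebrain 8 of the 15 probe sets passed the filter, those of cerebellum and 1 each of Gch1 (1429692_s_at), Slc18a2 and Slc6a3. None of the 8 was called in tg forebrain, in lh forebrain or in stg forebrain, and none reached an unadjusted p under 0.05. Over all probe sets tested, 0.189% were called in tg forebrain, 0.0148% in lh and 0.0111% in stg. At an unadjusted p under 0.05 the shares were 5.68%, 3.87% and 2.55% in the same order. The moderated F test of whether the change differs among the lines called no member in forebrain either, against 0.0259% of all. Ddc changed by 0.17 in tg, -0.12 in lh and 0.22 in stg (SE 0.12 each). Slc6a3 changed by -0.10, 0.03 and -0.15 in the same order (SE 0.15 each), with 95% intervals within -0.47 to 0.36. The largest change was that of Dbh 1450670_at in tg forebrain, with 38.5, 57.4 and 63.0 in tg-/-, against 40.5, 18.1 and 44.3 in tg+/+ (change 0.64, SE 0.31, limma adjusted p = 0.881).

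Of the 7 member probe sets measured in the fit over all 36 arrays, Th was also the only one whose change differed between tissues. It did so in tg, where 0.0259% of all probe sets were called, and in lh, where 0.0111% were. In stg, with 0.248% of all called, no member was. Of the 5 that also passed the filter within cerebellum, 3 were lower in cerebellum than in forebrain in +/+ mice. Of all 27022 probe sets tested, 15726 (58.2%) differed in either direction, and 8749 of these were higher in cerebellum. The difference, cerebellum minus forebrain, was -1.92 for Th (SE 0.11), -1.86 for Ddc (SE 0.10) and -0.70 for Dbh 1450670_at (SE 0.26), with limma adjusted p of 0.0197 or less. Dbh 1459848_x_at (-0.05) and Slc6a2 1447311_at (-0.08) did not pass. Slc6a3 and Slc18a2 entered this fit only through their forebrain signal, so their levels are given with no test. The +/+ group means of Slc6a3 were 2.78 to 18.9 in cerebellum and 97.8 to 121 in forebrain. Those of Slc18a2 were 15.7 to 19 in cerebellum and 74.5 to 101 in forebrain.

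Markers of catecholamine neurons were read in the same arrays. Of the 6 noradrenergic markers, which include Dbh, Slc6a2 and Phox2a, 5 had a probe set, and their summed signal ran from 44.1 to 113 in tg-/- cerebellum, against 53.4 to 135 in tg+/+. It ran from 131 to 163 in lh-/- cerebellum, against 84.1 to 149 in lh+/+. The sums overlapped in both lines. For midbrain dopamine neurons, Pitx3 was at or below 42.6 and Foxa2 at or below 15.2 on every cerebellum array, and the summed signal of the 6 markers was set mainly by Aldh1a1 and Nr4a2. That sum ran from 1804 to 2177 in tg-/-, against 2127 to 2345 in tg+/+, and from 1907 to 2361 in lh-/-, against 1845 to 2030 in lh+/+. The sums of the 12 Purkinje markers with a probe set also overlapped in tg and lh, at 55411 to 62855 in tg-/-, against 58304 to 61792 in tg+/+, and 51166 to 58670 in lh-/-, against 55240 to 61990 in lh+/+. In stg they did not overlap, at 59656 to 65807 in stg-/-, against 47131 to 59623 in stg+/+. None of the 12 was called in the 3 lines in cerebellum by limma, with 6 higher at an unadjusted p under 0.05 in stg (lowest adjusted p 0.0515), 1 higher in tg and 0 in lh. In either direction, 10.7% of all probe sets tested reached that threshold in stg, 7.28% in tg and 7.62% in lh.

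The 9 granule cell markers summed to 27071 to 27677 in lh-/- cerebellum, against 32002 to 34099 in lh+/+, without overlap. In stg-/- they also lay lower without overlap, at 26380 to 27335, against 28796 to 33469 in stg+/+. Of these markers Gabra6, at its probe set with the highest mean, was called lower in stg cerebellum (change -0.41, SE 0.083, limma adjusted p = 0.0129). In tg they overlapped, at 30814 to 32820 in tg-/-, against 32460 to 34332 in tg+/+. Marker sums also did not overlap for 6 brainstem genes in lh, at 171 to 199 in lh-/-, against 109 to 155 in lh+/+. Of these 6 genes 1 passed the filter. Nor did those of 6 olfactory bulb genes in tg, at 171 to 220 in tg-/-, against 303 to 362 in tg+/+. This sum was set mainly by Eomes, which averaged 131 in tg-/- and 247 in tg+/+. Its median was 200 on the cerebellum arrays and 104 on the forebrain arrays. Of the same list, Doc2g and Trh averaged lower in tg-/-, Tbx21 and Sp8 higher, and Cdhr1 was at 9.40 in tg-/- and 9.59 in tg+/+. Those of 5 chromaffin genes in tg were 3993 to 4881 in tg-/-, against 5002 to 5619 in tg+/+, and in stg they were 3181 to 3258 in stg-/-, against 4797 to 5828 in stg+/+. Of these Chgb, a protein of secretory granules, was called lower in stg (change -0.82, SE 0.11, limma adjusted p = 0.000566). The sums of 4 forebrain genes in stg cerebellum were 540 to 696 in stg-/-, against 428 to 510 in stg+/+. They were set mainly by Ppp1r1b, which averaged 557 in stg-/- and 394 in stg+/+ and was not called (limma adjusted p = 0.159). In cerebellum the sums of all other lists and lines overlapped. For 3 arrays against 3, a share of 0.1 of the 20 arrangements separates the groups fully in either direction. Separation of a sum is therefore not rare by itself, and the sums were not tested. The part of these markers in the Th result was not tested. The forebrain arrays carried Tph2, the serotonin enzyme of raphe neurons, at 31.3 to 73.8, against 0.319 to 15.7 on the cerebellum arrays. They also carried the olfactory bulb marker Cdhr1 at 184 to 338, against 1.61 to 28.7 on the cerebellum arrays. The sum of 6 hypothalamus and pituitary genes was uneven among the forebrain arrays. It ran from 664 to 10230 in lh+/+ forebrain, against 682 to 1156 in lh-/-. In stg+/+ forebrain it ran from 680 to 5962, against 564 to 1102 in stg-/-. The part of these genes in forebrain Th was not tested.

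Around the members, 8 pathway lists covered cofactor synthesis, breakdown, other transporters, dopamine receptors, adrenergic receptors, transcription factors of catecholamine neurons, regulators acting on the Th promoter, and regulators of the enzyme itself. Of the 56 genes tested in cerebellum, none was called in tg (lowest limma adjusted p 0.0733) and none in lh (lowest 0.373). At an unadjusted p under 0.05, 4 were lower and 0 higher in tg, 2 were lower and 3 higher in lh, and 4 were lower and 6 higher in stg. Over all probe sets tested the share at that threshold was 7.28% in tg, 7.62% in lh and 10.7% in stg. In stg cerebellum 2 were called, En2 and Jun, both lower. Jun, a subunit of AP-1, averaged 308 ± 53.4 in stg-/- and 483 ± 33.3 in stg+/+ (SD, n = 3 each; change -0.65, SE 0.14, limma adjusted p = 0.0244). En2, a homeobox gene of the cerebellum and midbrain, averaged 879 ± 86.8 in stg-/- and 1231 ± 111 in stg+/+ (change -0.48, SE 0.11, limma adjusted p = 0.0297).

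Among the regulators of the Th promoter, the genes nearest to the threshold in tg were lower in tg-/- and did not pass. Nr4a2, the orphan receptor that Th of midbrain dopamine neurons needs, read 148, 189 and 335 in tg-/- cerebellum, against 520, 773 and 824 in tg+/+ cerebellum, without overlap. Its change of -1.70 (SE 0.41) did not pass (limma adjusted p = 0.0733). Nr4a1 was at -1.35 (adjusted p = 0.147) and Fos at -1.22 (adjusted p = 0.210), both of them activity-regulated genes. In lh cerebellum Nr4a2 averaged 455 ± 92.9 in lh-/- and 445 ± 99.5 in lh+/+, and Fos 1352 ± 239 in lh-/- and 1486 ± 432 in lh+/+ (SD, n = 3 each). Creb1, which codes for the protein that binds the cyclic AMP response element, averaged 632 ± 29.3 in tg-/- and 648 ± 66.5 in tg+/+, and 652 ± 44.5 in lh-/- and 684 ± 62.3 in lh+/+ (SD, n = 3 each). The related Crem read 107, 92.6 and 113 in lh-/-, against 85.7, 64.1 and 69.8 in lh+/+ (change 0.49, limma adjusted p = 0.415).

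Of the cofactor genes, Gchfr, the feedback regulator of Gch1, read 20.5, 26.9 and 28.2 in lh-/- cerebellum, against 92.6, 45.5 and 47.7 in lh+/+ (change -1.14, limma adjusted p = 0.566). In tg cerebellum Gchfr read 27.6, 23.9 and 20.0 in tg-/-, against 54.8, 37.5 and 36.1 in tg+/+, also without overlap and not called. In stg it overlapped, at 52.7 to 177 in stg-/-, against 26.1 to 162 in stg+/+. Qdpr, which recycles the cofactor, averaged 4118 ± 200 in tg-/- and 3938 ± 470 in tg+/+, and 3798 ± 407 in lh-/- and 3676 ± 479 in lh+/+ (SD, n = 3 each). Maoa, which breaks catecholamines down, averaged 302 ± 8.23 in tg-/- and 298 ± 24.4 in tg+/+, and 310 ± 22.4 in lh-/- and 312 ± 42.8 in lh+/+. Qdpr and Maoa differed by less than the spread between arrays. In the same lists Maob, a related enzyme, ran from 253 to 306 in tg-/-, against 199 to 252 in tg+/+, and Pts, of cofactor synthesis, from 144 to 160 in lh-/-, against 125 to 140 in lh+/+. Neither overlapped and neither was called. In stg cerebellum Pts did not overlap either, at 186 to 217 in stg-/-, against 137 to 165 in stg+/+ (limma adjusted p = 0.162). Nor did Spr, also of cofactor synthesis, at 177 to 180 in stg-/-, against 148 to 170 in stg+/+. The share of all probe sets without overlap was not counted. Of the 11 adrenergic receptor and kinase symbols only 2 had a probe set with a single symbol, and the rest were not used here.

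In forebrain none of the 61 pathway genes tested was called in tg, lh or stg. At an unadjusted p under 0.05 there were 5 lower and 2 higher in tg, 2 lower and 0 higher in lh, and 0 lower and 1 higher in stg, against 5.68% of all probe sets in tg, 3.87% in lh and 2.55% in stg. The 5 lower in tg forebrain were the activity-regulated genes Fos, Fosl2, Junb, Egr1 and Nr4a1, with changes from -0.73 to -0.58 (limma adjusted p from 0.216 to 0.840). Th itself was at 0.03 in that comparison.

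In all, 7 probe sets were called in both tg and lh cerebellum, which is 4.52% of the 155 called in tg and 16.7% of the 42 called in lh. Over all probe sets tested, 0.155% were called in lh and 0.574% in tg. The comparisons share no arrays, but they come from the same fit and use the same estimate of the spread for each probe set. Besides Th, 4 were higher in both: Tac1, Hrk, Tpd52l1 and Fam117a. Gabra6 (1451706_a_at) and Stap2 were lower in both, and also in stg cerebellum (-0.65 and -0.74, limma adjusted p = 0.000109 and 0.00205).

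**Figure D4:**
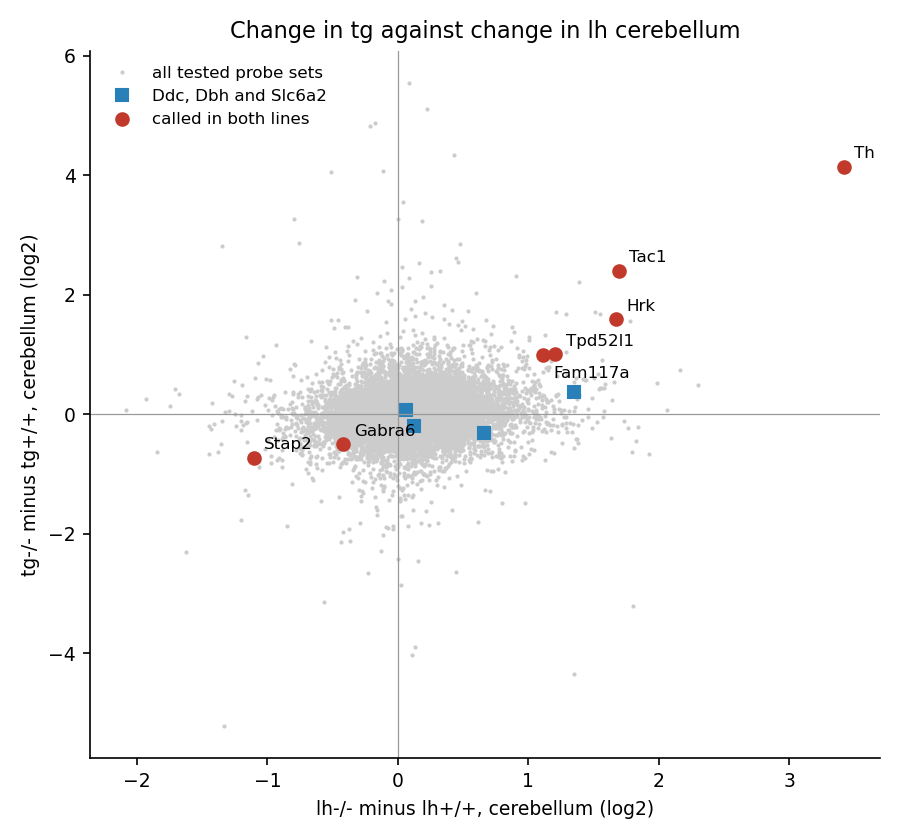
Change in tg-/- minus tg+/+ cerebellum against change in lh-/- minus lh+/+ cerebellum (log2) for the probe sets tested; red circles passed adjusted p 0.05 in both lines, and blue squares are the tested probe sets of Ddc, Dbh and Slc6a2. Th lies at 3.42 and 4.15, beyond Tac1 at 1.69 and 2.40, while the blue squares lie between -0.32 and 0.37 in tg and between 0.06 and 1.35 in lh.

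The 5 genes whose pattern over the 18 cerebellum arrays was most like that of Th were Tac1 (Pearson r 0.947), Hrk (0.889), Tpd52l1 (0.878), Fam117a (0.872) and Fam174b (0.846). These correlations describe arrays that share groups and preparation. Tac1, the precursor of substance P, read 121, 122 and 110 in tg-/- cerebellum, against 19.2, 15.9 and 25.0 in tg+/+. It read 88.5, 178 and 132 in lh-/- cerebellum, against 38.7, 41.5 and 32.6 in lh+/+. Neither line overlapped, and the changes were 2.40 in tg and 1.69 in lh (limma adjusted p = 0.000192 and 0.0115). In stg Tac1 was at -0.01. Hrk, an activator of programmed cell death, averaged 165 ± 31.5 in tg-/- and 52.0 ± 4.59 in tg+/+, and 142 ± 18 in lh-/- and 45.3 ± 20.3 in lh+/+ (SD, n = 3 each; changes 1.59 and 1.67, limma adjusted p = 0.00536 and 0.00855). Over the 12 group means of both tissues the nearest were Ugt8a (0.855), B2m (0.842), Pcsk1 (0.837), Il13ra1 (0.836) and a different Hrk probe set, 1450366_at (0.833). Of these none was called in tg or lh cerebellum, and Il13ra1 was below the filter there.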

How the data were processed

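Total RNA of 36 mouse samples was measured on a 1-colour array of 45101 probe sets. The deposited values were linear signal intensities, and the software the authors used to produce them is not given in the sources used. The trimmed mean was 150.001 on every array, which shows a common scaling. The 3 arrays per group limit the precision. The constant of 2.98, the 10th percentile of all values, was added before log2, which shrinks changes near the floor. Array medians spanned 0.326, and no further normalization was applied. The 64 control probe sets were left out, and 27022 with a mean above the 40th percentile were kept in each fit.

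Groups were compared in limma 3.58.1 (R 4.3.3) with an intensity trend, two-sided moderated tests and Benjamini-Hochberg adjustment over all probe sets tested, called at 0.05. Fits took the 18 arrays of a tissue, or all 36 for differences between tissues. The script was tested on simulated data. Most forebrain labels name a mouse in the singular, but nothing in the labels says that each array had a different animal. The p-values therefore reflect only variation among these samples, which may be technical.

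Symbols came from the platform's probe annotation, and 34958 probe sets had 1 symbol. The text describes the probe sets of the 8 genes and names the mutated genes, called members of the lists, and the 5 genes most like Th by Pearson correlation over the cerebellum arrays and over the group means. Other genes of the lists, and those called in both tg and lh, were named after their values were seen. Members and lists were chosen with earlier results of these data known.

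Replicate numbers are in the cerebellum labels. Deviations of same-numbered arrays correlated at 0.156, 0.188 and 0.380 in stg. The main fits paired no arrays in any line, and pairing by number entered only in the replicate block named below. In tg (0.292, 0.0404 and 0.244) and lh (0.225, 0.0948 and 0.333) 1 pair each lay under 0.1. Arrays of -/- and +/+ with different numbers correlated from -0.313 to 0.159 over the lines. The shares of all probe sets given beside the members come from the fits without pairing. Alternatives were the filter, the constant, quantile normalization, no trend, array weights, fits on 6 arrays, a replicate block and leaving out each array.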

Additional observations from a re-analysis of the deposited data

Results flagged for a closer look

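The change of cerebellar Th differed between lines under the same contrast of -/- minus +/+. It was larger in tg than in stg by 3.92 on the log2 scale (SE 0.28, limma adjusted p = 3.97e-07), and larger in lh than in stg by 3.19 (SE 0.28, limma adjusted p = 1.22e-05). All 6 arrays of tg-/- and lh-/- lay above every +/+ array of the tissue, while the stg genotypes overlapped.

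The change of Th also differed between tissues, in cerebellum minus forebrain, by 4.11 in tg (SE 0.27, limma adjusted p = 2.04e-11) and by 3.57 in lh (SE 0.27, limma adjusted p = 8.91e-10).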

How the results depend on the processing

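Th stayed called in tg and lh cerebellum and uncalled in stg cerebellum and in forebrain under every alternative run. Its change ran from 3.70 to 4.23 in tg and from 3.12 to 3.47 in lh over the processing alternatives, and from 4.11 to 4.20 and from 3.26 to 3.55 when each array was left out. In stg it ran from 0.17 to 0.24 over the alternatives, and leaving out arrays gave 0.0011 without stg+/+ replicate 3, 0.15 without stg-/- replicate 3 and 0.48 without stg+/+ replicate 2. With a replicate block it was 4.15 in tg (limma adjusted p = 4.26e-08), 3.42 in lh (limma adjusted p = 1.16e-06) and 0.23 in stg (limma adjusted p = 0.614), and the block changed no member's call. Of 743 alternative values, 703 kept their direction and their side of the threshold, and 40 changed sign, all of them changes that did not pass in any setting. The cause was not tested. Over all probe sets, calls numbered 155 in tg, 42 in lh and 352 in stg cerebellum, against 429, 211 and 1018 with the replicate block. They numbered 390 in tg with array weights, and 6 in lh and 194 in stg in fits on the 6 arrays of a line. With quantile normalization the changes that turned sign were Ddc in lh cerebellum (-0.024), Gch1 in tg forebrain (-0.049) and Slc6a3 in lh forebrain (-0.0029). With array weights the sign turned for Dbh 1450670_at in stg cerebellum (-0.13), Slc6a3 in lh forebrain (-0.0048), Slc6a2 in stg forebrain (0.067), Th in tg forebrain (-0.055) and Dbh 1459848_x_at in tg forebrain (-0.47). When arrays were left out, cerebellar Ddc ran from -0.20 to 0.24 in stg, from -0.0052 to 0.18 in tg and from -0.090 to 0.18 in lh. Cerebellar Dbh 1459848_x_at ran from -0.32 to 0.21 in stg, from -0.89 to 0.31 in tg and from -0.25 to 0.33 in lh, Dbh 1450670_at from -0.17 to 0.27 in stg, and Slc6a2 from -0.095 to 0.68 in stg. In forebrain Th ran from -0.33 to 0.095 in stg and from -0.065 to 0.12 in tg, Dbh 1450670_at from -0.062 to 0.20 in stg and from -0.24 to 0.16 in lh, Slc18a2 from -0.095 to 0.031 in stg, Slc6a2 from -0.38 to 0.29 in stg, Gch1 from -0.080 to 0.17 in tg, Dbh 1459848_x_at from -0.44 to 0.67 in tg, and Slc6a3 from -0.077 to 0.12 in lh. Low signal limits Gch1, Slc18a2, Slc6a3 and Phox2a in cerebellum.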
